A study of Mus musculus with 12 samples.

Results

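Amino acid transporters of the solute carrier (SLC) superfamily were followed in islets of mice that overexpress the microRNA miR-7a2 in pancreatic β-cells (Tg7) and in islets of littermate wild-type mice (Wt). The members are the rows of the deposited count table whose mouse symbol belongs to the families Slc1, Slc3, Slc6, Slc7, Slc36, Slc38 or Slc43 and whose counts add up to at least 50 over all libraries. Of 37991 rows, 60 carried a symbol of these families and 46 reached that total, with 45 different symbols because Slc38a9 is listed under ENSMUSG00000047789 and under ENSMUSG00000069056. The other 14 rows held at most 42 counts (Slc6a11), and Slc7a15 held none. The rule itself used no difference between groups, but it was chosen with earlier results of these data known. All mice were labelled C57BL/6 males (the Tg7 line was bred to C57BL/6J females), the islets came from Tg7 or littermate Wt animals at 2 or 12 weeks of age (2w and 12w), and each of the 4 groups had 3 libraries (the 12w Wt libraries are numbered 1, 2 and 4). Each library was made from islets pooled from several animals, so the p-values below measure the spread between these 12 pools. The transgene acts in β-cells. Its promoter is not named in the labels or methods used here. The age of 2w is described in the study as prediabetic and the age of 12w as diabetic.

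Amino acids enter and leave β-cells through carriers with overlapping substrates, and several of these amino acids stimulate insulin secretion or serve as fuel. The Slc38 family holds sodium-coupled carriers of glutamine and other small neutral amino acids, Slc1 holds glutamate carriers and neutral exchangers, and Slc43 and part of Slc7 carry large neutral amino acids such as leucine. Light chains of the Slc7 family reach the plasma membrane only when they are bound to a heavy chain of the Slc3 family. Slc36 holds carriers of lysosomes and membranes, and Slc6 holds carriers of taurine, creatine, glycine and neutral amino acids.

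Levels are given as CPM, a gene's count relative to the library total, after scaling with edgeR's TMM factors, which keep a few abundant genes from shifting the rest. Total counts were between 11610697 and 17515758 per library, and the members together took up between 0.216% and 0.428% of them. The insulin genes took up between 14.8% and 29.99% of the counts of 12w Wt libraries, against 8.08% to 8.24% in Tg7 libraries of that age. A member is called higher or lower when its adjusted p from edgeR's quasi-likelihood test (Benjamini-Hochberg over all 15961 tested genes) was below 0.05. Of the 46 members 44 were tested, and Slc6a4 and Slc7a12 fell below the expression filter. Markers of several cell types differed between Tg7 and Wt islets. Genes that define β-cells were lower in Tg7 islets (6 of 7 at each age), and those of stellate cells and fibroblasts were higher (6 of 10 at 2w and 9 of 10 at 12w). Endothelial markers were higher at 12w (7 of 8), as were some of Schwann cells (3 of 6) and ducts (2 of 6 tested). In contrast, no α-cell marker was called at either age by edgeR or DESeq2, and none had an unadjusted p below 0.05. Acinar markers were low in all libraries, with a summed level of 17.1 to 32.8 CPM over 13 genes, and Amy2b had no count. In addition, 14 textbook kidney tubule genes, among them Kap, were counted in every library and took up between 0.130% and 1.10% of the counts. At 2w edgeR called 4 of them higher in Tg7 islets and DESeq2 5. All 14 had an unadjusted edgeR p below 0.05 at 2w, with log2 fold changes from 1.28 to 1.61. At 12w neither tool called any and none had an unadjusted p below 0.05. In bulk RNA, fewer cells of a type and less RNA per cell cannot be told apart.

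The microRNA that the transgene encodes, miR-7a-5p of Mir7-2, lies on the plus strand of mouse GRCm38.p6 at chr7:78888295-78888317. Its sequence in RefSeq is shown because its seed, bases 2 to 8 in capitals, is the part that pairs with target RNAs.
miR-7a-5p: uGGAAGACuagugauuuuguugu
The letters that pair with this seed, GTCTTCC on the transcript strand, were searched in the 3′ UTRs that the mm9 annotation gives. At least 1 match was present in 12 of the 44 tested members, which is 27.3%, against 14.4% of all 14406 tested genes with an annotated 3′ UTR. These members were Slc1a2, Slc3a2, Slc6a8, Slc6a9, Slc6a17, Slc7a4, Slc7a9, Slc7a11, Slc36a4, Slc38a2, Slc38a4 and Slc38a10. A match counted if it lay in the 3′ UTR of any annotated transcript of the gene. That of Slc7a9 (chr7:36239183-36239189 of mm9) lies well before the end of the plus-strand gene at 36251055. The matches of Slc6a9 also lie before the end of their gene. Whether the main transcripts of these carriers hold the matches was not tested. The matches of the 5 members among them that were lower in 12w Tg7 islets are printed here with the bases around them, on the transcript strand with the match in capitals. They stand at chr9:15544357-15544363 (Slc36a4), chr15:96826631-96826637 (Slc38a4), chr19:8782148-8782154 (Slc3a2), chrX:70925483-70925489 and chrX:70927638-70927644 (Slc6a8) and chr16:17573158-17573164 (Slc7a4) of mm9, those of Slc36a4 and Slc6a8 on the plus strand and the others on the minus strand.
Slc36a4: tccttactgcaGTCTTCCattaatctgaa
Slc38a4: cttcccctctcGTCTTCCgttctcactct
Slc3a2: tttggattctaGTCTTCCtctccttgttt
Slc6a8, first match: gtggaatgtacGTCTTCCagctatttgac
Slc6a8, other match: cgacatctcaaGTCTTCCgtgtagcagct
Slc7a4: cgttgcccactGTCTTCCtgtttatgatt
Of the printed matches, that of Slc36a4 and the first of Slc6a8 are followed by an A. Among the members not printed, the match of Slc38a2 and a match of Slc6a9 are followed by an A as well. Slc38a2 and Slc6a9 were not called at either age. Each match is a run of letters in the annotation and was not tested as a binding site.

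Divided by the length of the exons, the levels of the members spanned several orders of magnitude. In 12w Wt islets the highest were Slc3a2, the heavy chain 4F2hc, with 113 ± 17.7 CPM per kb (SD, n = 3), and Slc38a4, the sodium-coupled carrier SNAT4, with 107 ± 35.2 CPM per kb. These 2 levels did not differ beyond their spread. The taurine carrier Slc6a6 followed with 66.2 ± 19.8 CPM per kb, then the leucine exchanger Slc7a5 with 56.2 ± 33.4 and its relative Slc7a8 with 48.7 ± 3.50. Slc6a6 was level across the groups, with means between 66.2 and 69.6 CPM per kb, and ranked first among members in Tg7 islets at both ages. The members with the highest level of their family, by the mean of the 4 groups, were Slc1a4, Slc3a2, Slc6a6, Slc7a8, Slc36a1, Slc38a4 and Slc43a2. Within single groups the order differed in part, with Slc7a5 above Slc7a8 and Slc36a4 (13.1 CPM per kb) above Slc36a1 (11.2) in 12w Wt islets, and Slc38a5 at 2w and Slc38a10 at 12w (58.9) above Slc38a4 (52.6 and 44.0) in Tg7 islets. Between 13 and 18 members exceeded 10 CPM per kb in a group, and between 10 and 14 were below 1 CPM per kb. The carrier that moved farthest in this order was Slc38a5, with 42.1 ± 9.70 CPM per kb in 2w Wt islets, 60.2 ± 1.89 in 2w Tg7 islets, 6.06 ± 1.63 in Wt islets of 12w and 39.0 ± 6.10 in Tg7 islets of 12w, which placed it at rank 6, 2, 23 and 5.

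**Figure D1:**
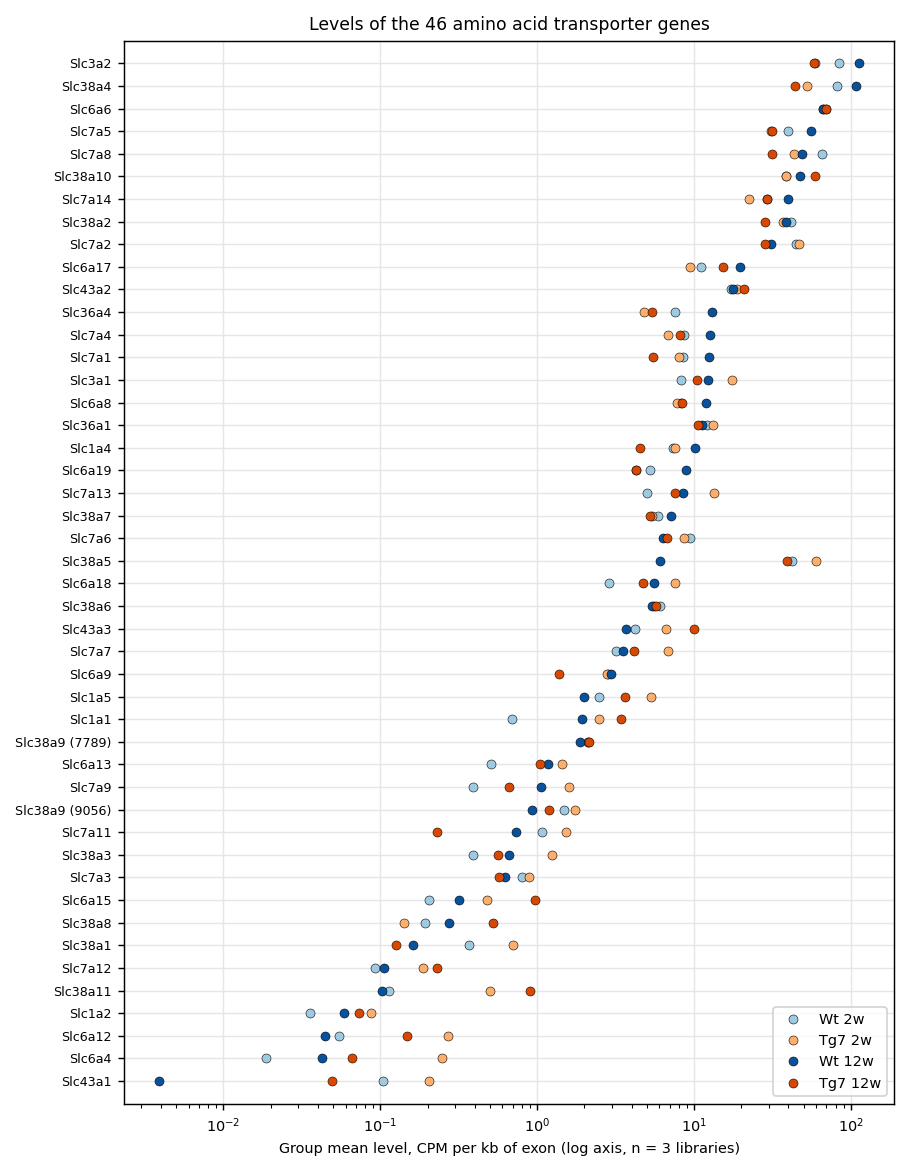
Level of each of the 46 members in CPM per kb of exon on a log axis, with 1 point for the mean of each group of 3 libraries. Slc3a2, Slc38a4 and Slc6a6 lie at the top, and the 12w Wt point of Slc38a5 lies at 6.06, apart from its other 3 points between 39.0 and 60.2.

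At 2w, 5 of the 44 tested members were called higher and 1 lower in Tg7 islets, which is 13.6% of them against 10.6 percent of all tested genes (6.07 higher and 4.55 lower). At 12w, 5 were called higher and 7 lower, which is 27.3% against 23.6 percent of all tested genes (12.5 higher and 11.2 lower). The median log2 fold change of the tested members was 0.09 at 2w and -0.15 at 12w, and that of all tested genes was 0.03 and -0.01. In number of calls the members were therefore near the background at both ages. The 4 members called at both ages were Slc1a5, Slc38a11 and Slc43a3, higher, and Slc7a8, lower. They make up 66.7% of the members called at 2w and 33.3% of those called at 12w, and for all genes the corresponding shares were 64.0% and 28.7%. Scaling by library size alone, which moved the median of all genes by 0.17 at 2w and 0.44 at 12w, called 10 members at 2w, all of them higher, and 9 higher and 2 lower at 12w. With upper-quartile factors the 2w calls were 6 higher and 3 lower. Over all tested genes, library size alone called 1670 higher and 317 lower at 2w and 5198 higher and 360 lower at 12w. Upper-quartile factors called 1204 higher and 623 lower at 2w.

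**Figure D2:**
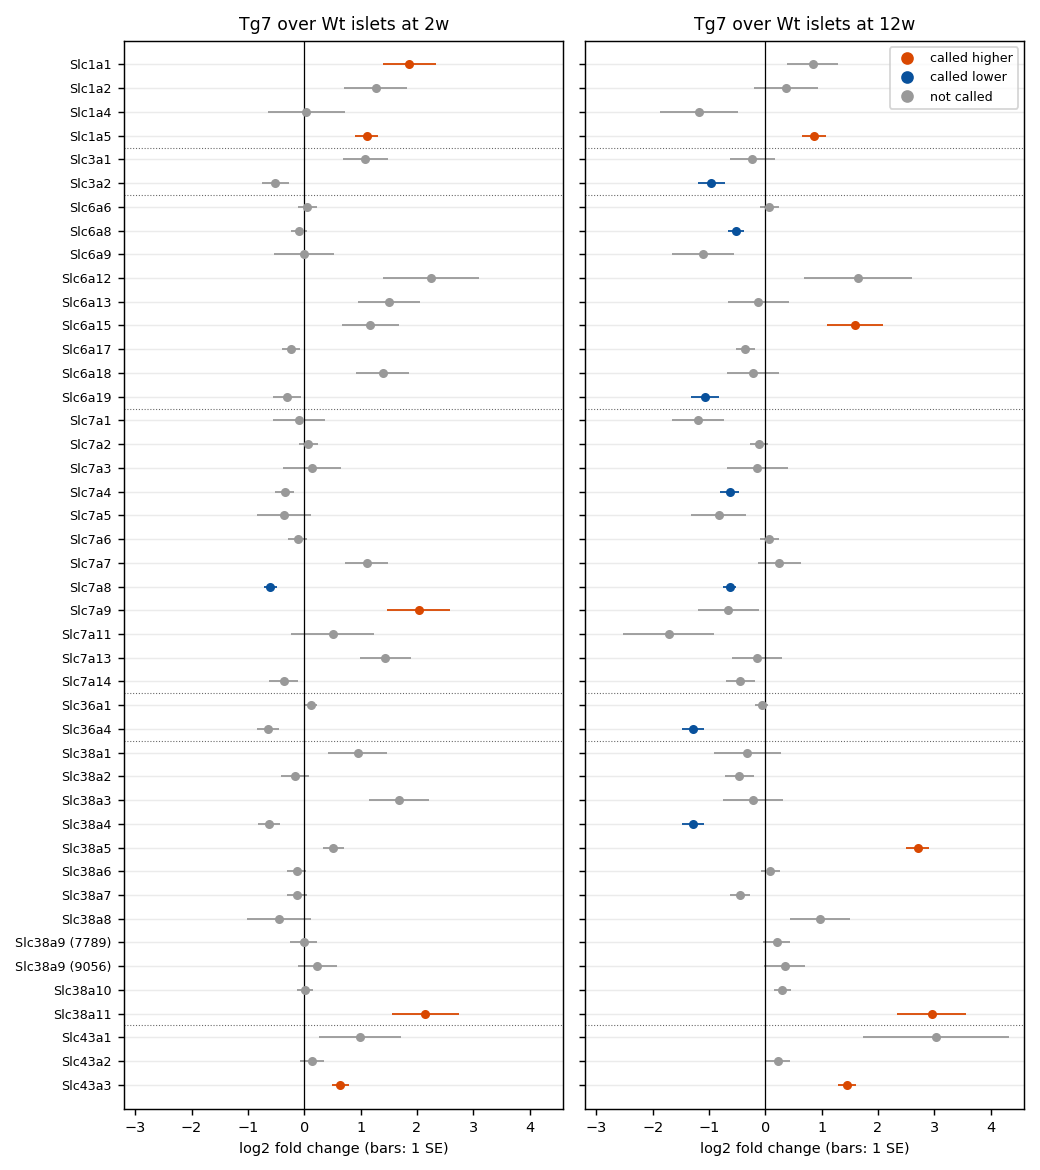
Log2 fold change of Tg7 over Wt islets at 2w and at 12w for the 44 tested members, with bars of ±1 SE, orange for members called higher, blue for those called lower and grey for the rest. The 12w changes reach from -1.71 (Slc7a11, not called) to 3.03 (Slc43a1, not called), and the points called at 12w are 5 to the right of 0 and 7 to the left.

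By family, the Slc1 carriers had a median log2 fold change of 1.19 at 2w and 0.60 at 12w, and 2 of 4 were called higher at 2w and 1 at 12w. The 3 Slc43 carriers had a median of 0.64 at 2w and 1.45 at 12w, with Slc43a3 called at both ages. The 12 Slc7 members had a median of -0.01 at 2w and -0.54 at 12w, with 1 called higher and 1 lower at 2w and 2 lower at 12w. The 12 Slc38 rows had medians of 0.00 and 0.14, with 1 called higher at 2w and 2 higher and 1 lower at 12w. Among the 9 tested Slc6 members 1 was called higher and 2 lower at 12w, with a median of -0.21. The 2 Slc3 heavy chains had medians of 0.29 and -0.60 and the 2 Slc36 carriers -0.27 and -0.67. In each of these 2 families 1 was called lower at 12w and 0 were called at 2w. Of all tested genes, 10.6 percent were called at 2w and 23.6 percent at 12w.

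Slc38a5 encodes SNAT5, a sodium-coupled carrier of glutamine, asparagine and histidine that is known from α-cells proliferating under high amino acid levels (chrX:7848259-7857305 of mm9, plus strand). In 12w Wt islets the 3 libraries had 17.8, 11.8 and 11.1 CPM, from 141, 149 and 167 counts. In 12w Tg7 islets they had 103, 76.2 and 83.2 CPM, from 1820, 1378 and 1454 counts. Every Tg7 library lay far above every Wt library, and the expression was 6.52-fold higher (log2 fold change 2.70, SE 0.20, edgeR adjusted p = 1.08e-06). At 2w the Wt libraries had 79.7, 119 and 84.0 CPM and the Tg7 libraries 131, 134 and 139.6 CPM. The groups did not overlap at 2w either, but the log2 fold change of 0.52 (SE 0.18) did not pass the test (edgeR adjusted p = 0.0849). The effect at 12w exceeded that at 2w by 2.19 on the log2 scale (SE 0.27, edgeR adjusted p = 0.00127). From 2w to 12w the level fell 7.03-fold in Wt islets (log2 fold change -2.81, SE 0.20, edgeR adjusted p = 1.18e-06). In Tg7 islets it fell by 0.63 on the log2 scale (SE 0.18, edgeR adjusted p = 0.0379), a call that was lost in 7 alternative settings, 6 of which left out 1 library (-0.65 to -0.54). The 2w difference between genotypes passed when 2w Wt replicate 2 (0.72) or 12w Wt replicate 1 or 4 (0.51 each) was left out, on the 2w libraries alone (0.52) and with library size alone (0.68). The summed level of the α-cell markers overlapped between genotypes at 12w, with 25581 to 46523 CPM in Wt and 29893 to 44177 CPM in Tg7 islets. Acinar cells also express Slc38a5, and the summed acinar markers were lower in 12w Tg7 islets (17.1 to 18.9 CPM) than in 12w Wt islets (23.3 to 28.2 CPM). At 2w they were higher in Tg7 islets (29.2 to 32.8 CPM) than in Wt islets (18.6 to 20.4 CPM), as Slc38a5 was. The stellate and fibroblast markers summed to 328 to 476 CPM in 2w Wt and 517 to 685 CPM in 2w Tg7 islets. At 12w they summed to 91.1 to 152 CPM in Wt and 394 to 416 CPM in Tg7 islets. The endothelial markers summed to 882 to 1132 CPM and 980 to 1082 CPM at 2w, and to 394 to 512 CPM and 792 to 846 CPM at 12w. Both sums were lowest in 12w Wt islets, as Slc38a5 was. The part of any of these cells in the Slc38a5 values was not tested.

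The liver and placenta carrier Slc38a4 (SNAT4), an imprinted gene that transports neutral and cationic amino acids, changed the other way. Its 12w Wt libraries had 362, 340.0 and 596 CPM and its 12w Tg7 libraries 190.5, 179.9 and 161 CPM. The groups did not overlap, and replicate 4 of the Wt libraries was the highest of all. Expression was 2.44-fold lower in Tg7 islets (log2 fold change -1.29, SE 0.20, edgeR adjusted p = 0.000402), and without that Wt library the log2 fold change was -0.98 and still passed. At 2w the Wt libraries had 297, 347 and 343 CPM and the Tg7 libraries 254, 181 and 201 CPM, again without overlap. The log2 fold change of -0.63 did not pass at 2w (SE 0.20, edgeR adjusted p = 0.0536), and the difference between the ages did not pass either (-0.65, SE 0.28, edgeR adjusted p = 0.295). The genes Slc38a1, Slc38a2 and Slc38a4 lie near each other on chromosome 15 of mm9. Of these, Slc38a2, the SNAT2 carrier induced by amino acid starvation, had log2 fold changes of -0.17 and -0.46 that did not pass. Slc38a1 had 0.95 and -0.32, which did not pass either.

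Slc38a11, a family member whose substrate is poorly known, was scarce but higher in Tg7 islets at both ages. It was counted 9, 9 and 5 times in the 2w Wt libraries and 50, 29 and 38 times in the 2w Tg7 libraries. At 12w the counts were 0, 5 and 14 in Wt and 70, 62 and 74 in Tg7 libraries. No Tg7 library overlapped a Wt library of the same age. The log2 fold change was 2.15 at 2w (SE 0.60, edgeR adjusted p = 0.0356) and 2.95 at 12w (SE 0.61, edgeR adjusted p = 0.00337). The 2w call was lost in 10 of 21 alternative settings, without any single 2w library (1.83 to 2.41), without any single 12w Tg7 library (2.14 each) and with the kidney covariate (2.42). The 12w call was kept in all settings. The lysosomal arginine sensor Slc38a9 had log2 fold changes between -0.01 and 0.34 over its 2 rows and both ages, none of which passed, and Slc38a7, a lysosomal glutamine carrier, had -0.12 and -0.45, which did not pass.

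Slc43a3, which is known as a carrier of purine nucleobases, rose at both ages. Its 2w Wt libraries had 21.5, 16.8 and 18.2 CPM and its 2w Tg7 libraries 29.6, 30.5 and 28.2 CPM. At 12w the Wt libraries had 17.0, 19.1 and 13.2 CPM and the Tg7 libraries 43.9, 47.1 and 43.5 CPM. The groups were apart at both ages, with 1.56-fold higher expression at 2w (log2 fold change 0.64, SE 0.15, edgeR adjusted p = 0.0146) and 2.73-fold at 12w (log2 fold change 1.45, SE 0.15, edgeR adjusted p = 1.99e-05). The 2w call did not hold with the kidney covariate (0.71) or when 2w Wt replicate 2 (0.56) or 3 (0.62) was left out. The difference of 0.81 between the ages did not pass (SE 0.21, edgeR adjusted p = 0.0897). The leucine carrier Slc43a2 (LAT4) had log2 fold changes of 0.13 and 0.22 that did not pass. Slc43a1 (LAT3), which lies near Slc43a3 on chromosome 2 of mm9, was almost absent at 12w, with 1 count in the 3 Wt libraries and 15 in the 3 Tg7 libraries, a ratio of 10.0 (exact 95% counting interval 1.54 to 421). Such intervals cover counting error only. Endothelial cells also express Slc43a3, and the summed endothelial markers were 394 to 512 CPM in 12w Wt and 792 to 846 CPM in 12w Tg7 islets. At 2w they overlapped, with 882 to 1132 CPM in Wt and 980 to 1082 CPM in Tg7 islets, and none of the 8 was called. The stellate and fibroblast markers summed to 91.1 to 152 CPM in 12w Wt and 394 to 416 CPM in 12w Tg7 islets. At 2w these summed to 328 to 476 CPM in Wt and 517 to 685 CPM in Tg7 islets. Their part in the Slc43a3 and Slc38a11 values was not tested.

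Slc1a5 encodes ASCT2, an exchanger that brings glutamine into cells. The Wt libraries had 10.5, 7.73 and 12.6 CPM at 2w and 9.08, 9.61 and 6.27 CPM at 12w. The Tg7 libraries had 22.9, 21.2 and 22.5 CPM at 2w and 17.3, 14.8 and 13.2 CPM at 12w. Every Tg7 library lay above every Wt library of its age. Expression was 2.16-fold higher at 2w (log2 fold change 1.11, SE 0.21, edgeR adjusted p = 0.0037) and 1.83-fold higher at 12w (log2 fold change 0.87, SE 0.21, edgeR adjusted p = 0.00915). Both calls were kept in all alternative settings, with log2 fold changes from 0.94 to 1.28 at 2w and from 0.66 to 1.32 at 12w. Of its relatives, Slc1a4 (ASCT1), a carrier of serine and alanine, had 0.04 at 2w and -1.18 at 12w, and Slc1a2, an astrocyte glutamate carrier with a miR-7 seed match, had 1.27 and 0.36, none of which passed.

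The heavy chain Slc3a2 (4F2hc) and its partners were measured together. Slc3a2 had 275, 365 and 367 CPM in 12w Wt libraries and 178, 166 and 173 CPM in 12w Tg7 libraries, without overlap. It was 1.95-fold lower at 12w (log2 fold change -0.96, SE 0.24, edgeR adjusted p = 0.0103). At 2w its Wt libraries had 370.4, 177 and 199 CPM and its Tg7 libraries 136, 201 and 186 CPM, and these overlapped (log2 fold change -0.51, SE 0.24, edgeR adjusted p = 0.183). With scaling by library size alone the 12w value was -0.53 and did not pass. Its partner Slc7a8 (LAT2), an exchanger of neutral amino acids, was lower at both ages. The 2w libraries had 236, 280.1 and 281 CPM in Wt and 176, 189 and 159.8 CPM in Tg7 islets, and the 12w libraries 201, 180.3 and 207 CPM in Wt and 134, 128 and 117 CPM in Tg7 islets. At neither age did the groups overlap. Slc7a8 was 1.52-fold lower at 2w (log2 fold change -0.60, SE 0.12, edgeR adjusted p = 0.00559) and 1.55-fold lower at 12w (log2 fold change -0.64, SE 0.12, edgeR adjusted p = 0.00174), but scaling by library size alone left -0.45 and -0.19, which did not pass, and with the kidney covariate the 2w value of -0.55 did not pass either. The other partners did not pass at either age, with log2 fold changes of -0.36 and -0.83 for Slc7a5 (LAT1), -0.12 and 0.07 for Slc7a6, 1.11 and 0.25 for Slc7a7 (y+LAT1), and 0.51 and -1.71 for the cystine carrier Slc7a11.

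Slc36a4 (PAT4), a high-affinity carrier of proline and tryptophan, had 56.5, 61.1 and 101 CPM in 12w Wt libraries and 30.3, 30.7 and 28.9 CPM in 12w Tg7 libraries. All Tg7 libraries lay below all Wt libraries, and expression was 2.43-fold lower (log2 fold change -1.28, SE 0.20, edgeR adjusted p = 0.00041). Without Wt replicate 4, the highest, the log2 fold change was -0.97 and still passed. At 2w the Wt libraries had 43.7, 36.9 and 45.5 CPM and the Tg7 libraries 31.1, 27.1 and 22.5 CPM, which did not overlap either, but the log2 fold change of -0.65 did not pass (SE 0.20, edgeR adjusted p = 0.0512). The 2w differences of Slc36a4 and Slc38a4 passed in 10 and 9 of the alternative settings, among them without Tg7 2w replicate 1 (-0.76 and -0.78) and without Wt 12w replicate 1, 2 or 4 (-0.65 and -0.64 each). The lysosomal relative Slc36a1 (PAT1) had log2 fold changes of 0.11 and -0.07 that did not pass.

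Of the carriers of arginine and lysine, Slc7a2 (CAT2) had 227 to 502 CPM over all libraries and log2 fold changes of 0.07 and -0.11 that did not pass. Slc7a1 (CAT1), the general arginine carrier, had -0.09 at 2w and -1.19 at 12w, and the latter had an edgeR adjusted p of 0.0794 although the groups did not overlap. Slc7a4, a related protein for which transport is not established, had 41.8, 67.6 and 41.7 CPM in 12w Wt and 32.1, 33.6 and 31.8 CPM in 12w Tg7 libraries. It was 1.55-fold lower in Tg7 islets (log2 fold change -0.64, SE 0.17, edgeR adjusted p = 0.0166), and this call was lost in 5 alternative settings, without Wt 12w replicate 2 (-0.36), without Tg7 12w replicate 1 (-0.61) or 3 (-0.62), on the 12w libraries alone (-0.66) and with library size alone (-0.19). Slc7a14, a lysosomal relative, had 272, 258 and 643 CPM in 12w Wt libraries and 283.6 to 291 CPM in 12w Tg7 libraries, so that Wt replicate 4 stood apart, and its log2 fold changes of -0.37 and -0.44 did not pass.

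Slc6a8 carries creatine. Its 12w Wt libraries had 62.9, 72.8 and 51.5 CPM and its 12w Tg7 libraries 43.5, 40.8 and 45.997 CPM, without overlap, and it was 1.44-fold lower (log2 fold change -0.52, SE 0.14, edgeR adjusted p = 0.0169). The call was lost without Wt 12w replicate 2 (-0.39), without Tg7 12w replicate 1 (-0.51) or 2 (-0.48), with upper-quartile factors (-0.44) and with library size alone (-0.07). At 2w its groups overlapped, with 39.6, 46.9 and 43.04 CPM in Wt and 35.6, 41.2 and 45.0 CPM in Tg7 libraries. Slc6a15, a carrier of branched-chain amino acids in neurons, was at 0.882, 0.873 and 1.67 CPM in 12w Wt and at 3.61, 2.88 and 4.06 CPM in 12w Tg7 libraries. It was 3.01-fold higher (log2 fold change 1.59, SE 0.50, edgeR adjusted p = 0.0332), and the call did not hold when 12w Wt replicate 1 (1.43), 12w Wt replicate 2 (1.41) or any single 12w Tg7 library (1.48 to 1.72) was left out. Its relative Slc6a17, which fills synaptic vesicles with neutral amino acids, had log2 fold changes of -0.23 and -0.36, and the taurine carrier Slc6a6 had 0.05 and 0.07, none of which passed.

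Slc6a19 (B0AT1) takes up neutral amino acids in kidney and intestine. In 12w islets its libraries had 43.6, 40.7 and 50.2 CPM in Wt and 21.2, 16.4 and 26.6 CPM in Tg7, without overlap. It was 2.10-fold lower (log2 fold change -1.07, SE 0.25, edgeR adjusted p = 0.00698), and with library size alone it had -0.63 and did not pass. At 2w its groups overlapped, with 29.1, 25.5 and 24.7 CPM in Wt and 13.1, 20.7 and 30.1 CPM in Tg7 libraries (log2 fold change -0.31, edgeR adjusted p = 0.453).

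**Figure D3:**
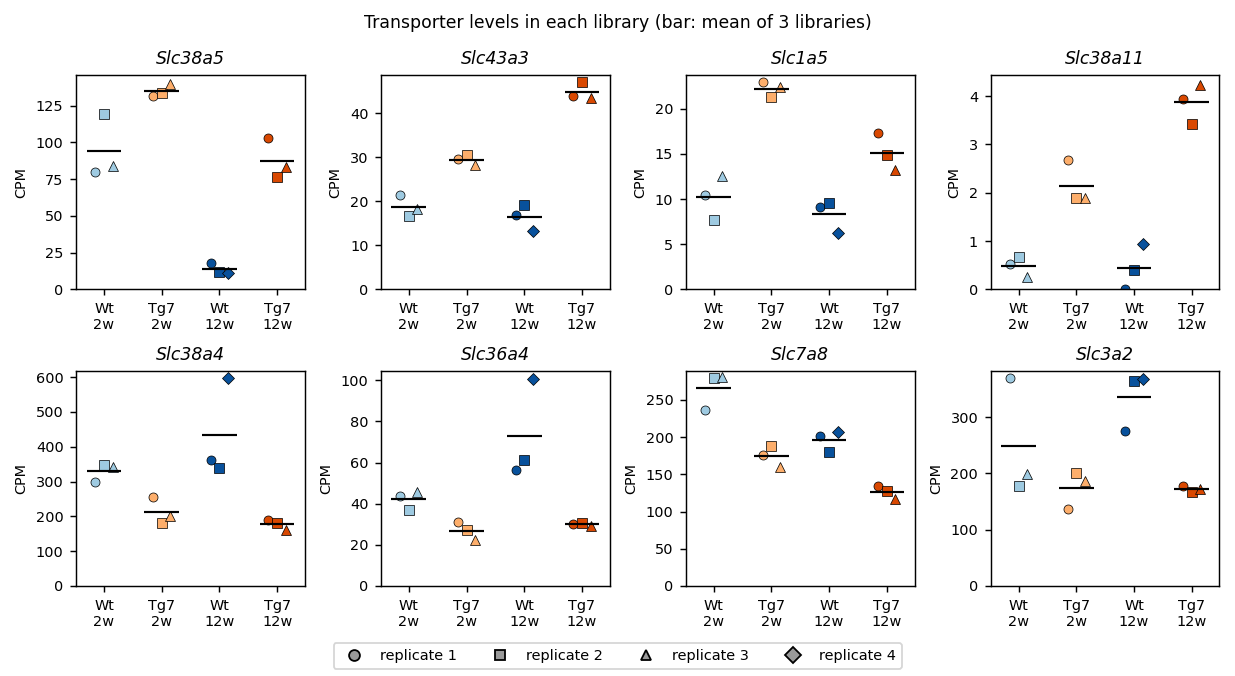
CPM in each of the 12 libraries for 8 carriers on linear axes that start at 0, with 1 marker per library and a bar at the mean of 3. Slc38a5, Slc43a3, Slc1a5 and Slc38a11 lie higher in 12w Tg7 than in 12w Wt libraries, and Slc38a4, Slc36a4, Slc7a8 and Slc3a2 lie lower.

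The 12 members with a miR-7 seed match divided as follows. At 12w 5 were called lower and the others were not called, with a median log2 fold change of -0.65, and the other 32 tested members had 2 called lower and 5 higher with a median of 0.00. At 2w 1 of the 12 (Slc7a9) was called higher and the others were not called, with a median of -0.13, and the other 32 had 4 higher and 1 lower with a median of 0.19. Over all tested genes with an annotated 3′ UTR, 2074 had a match, of which 371 were lower and 241 higher at 12w with a median of -0.09, and the 12332 without one had 1348 lower and 1635 higher with a median of -0.01. At 2w 161 genes with a match were lower and 108 higher, and of those without a match 540 were lower and 826 higher. The members that fell at 12w and carry no match were Slc6a19 and Slc7a8.

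Of the 44 tested members, 11 had all 3 Tg7 libraries above all 3 Wt libraries at 2w, which is 25.0% against 17.8 percent of all tested genes, and 5 had them below, 11.4% against 18.1 percent. At 12w 9 lay above, 20.5% against 20.7 percent, and 11 lay below, 25.0% against 16.3 percent. The 14 tested members that the naming rule did not pick had log2 fold changes from -0.37 to 2.25 at 2w, with a lowest edgeR adjusted p of 0.0575, and from -1.19 to 1.64 at 12w, with a lowest of 0.0794.

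Several carriers best known from the proximal tubule of the kidney followed the kidney tubule genes from library to library. The 14 kidney genes summed to 1339, 2629 and 1590.3 CPM in 2w Wt libraries and to 2335, 3431 and 9279 CPM in 2w Tg7 libraries. At 12w they summed to 4973, 2778 and 2505 CPM in Wt and to 1857, 2531 and 4081 CPM in Tg7 libraries. Tg7 replicate 3 of 2w stood apart with the highest sum. Slc6a18, a neutral amino acid carrier of the tubule, had 9.26, 17.3 and 11.5 CPM in 2w Wt and 15.4, 23.4 and 60.6 CPM in 2w Tg7 libraries. At 12w it had 38.6, 17.1 and 18.1 CPM in Wt and 13.6, 19.3 and 29.9 CPM in Tg7 libraries, so that the same libraries were high as for the kidney sum. Its highest level was 6.55 times its lowest, but its ratio to the kidney sum varied only 1.26-fold over the 12 libraries. The same ratio varied 1.36-fold for Slc7a13, 1.48-fold for Slc3a1, the rBAT heavy chain of the tubule, 2.18-fold for Slc38a3, 2.29-fold for Slc6a13, 2.34-fold for Slc7a7 and 2.60-fold for Slc7a9, the light chain that pairs with rBAT. For the members as a group the median of this ratio's range was 8.73-fold. For Slc6a19 it was 6.71-fold and for Slc38a4 10.97-fold, so these did not follow the kidney sum.

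**Figure D4:**
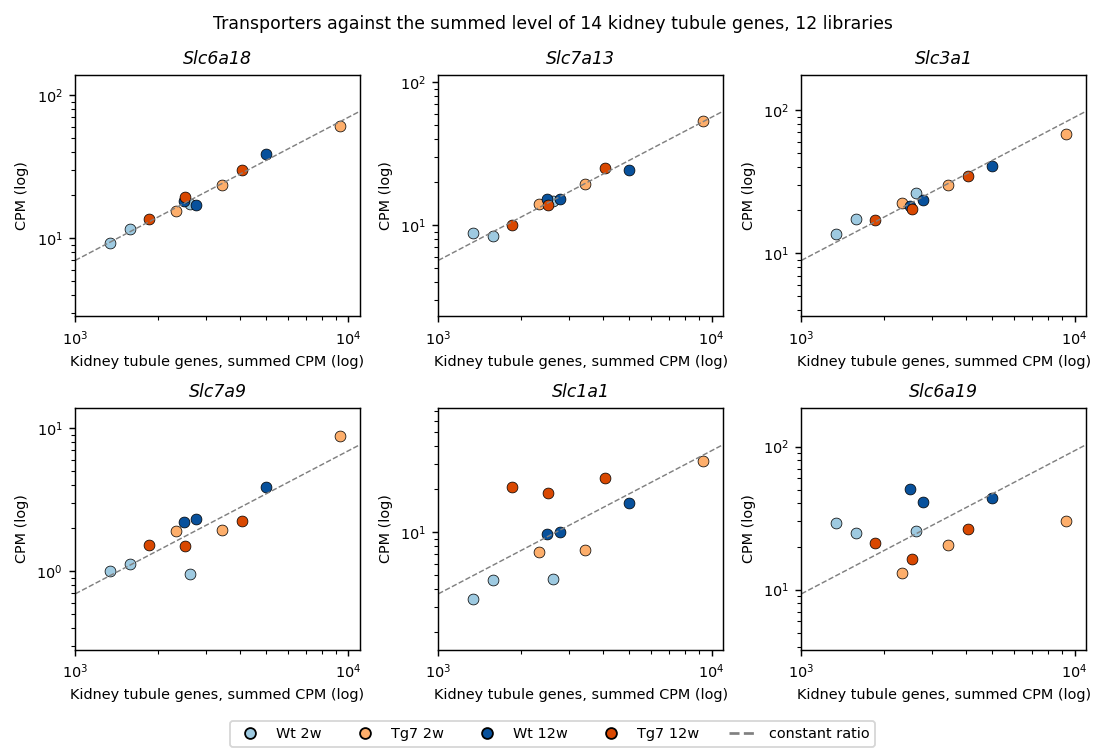
CPM of 6 carriers against the summed CPM of 14 kidney tubule genes in the 12 libraries, both axes on a log scale, with a dashed line of constant ratio in each panel. Slc6a18, Slc7a13 and Slc3a1 lie along the line, whereas Slc6a19 and Slc1a1 scatter around it.

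Slc7a9 and Slc1a1 were among the 5 members called higher at 2w. Slc7a9 had 1.01, 0.958 and 1.12 CPM in 2w Wt and 1.92, 1.95 and 8.79 CPM in 2w Tg7 libraries (log2 fold change 2.03, SE 0.56, edgeR adjusted p = 0.0337). Slc1a1 (EAAC1), a glutamate carrier of neurons and of the tubule, had 3.38, 4.71 and 4.63 CPM in 2w Wt and 7.20, 7.47 and 31.5 CPM in 2w Tg7 libraries (log2 fold change 1.87, SE 0.47, edgeR adjusted p = 0.0227). In both, Tg7 replicate 3 lay far above the other 2 Tg7 libraries, which still lay above all Wt libraries. Without this library the log2 fold change was 0.89 for Slc7a9 (edgeR adjusted p = 0.247) and 0.78 for Slc1a1 (edgeR adjusted p = 0.0907). Both calls were also lost without any single 2w Wt library (1.98 to 2.09 for Slc7a9 and 1.72 to 1.94 for Slc1a1), and that of Slc7a9 without Tg7 12w replicate 2 (2.03). With the log2 kidney sum as a covariate it was 0.52 (edgeR adjusted p = 0.666) and 0.49 (edgeR adjusted p = 0.516). In that fit 1 member was called at 2w, Slc1a5 (log2 fold change 1.22, edgeR adjusted p = 0.0167). Over all 15961 tested genes the 2w calls fell from 1695 to 736 with this covariate. Slc43a3 (0.71), Slc38a11 (2.42) and Slc7a8 (-0.55) lost their 2w calls with log2 fold changes near those of the main fit (0.64, 2.15 and -0.60). At 12w Slc1a1 had 16.01, 10.0 and 9.73 CPM in Wt and 20.8, 18.7 and 23.8 CPM in Tg7 libraries, without overlap. That change of 0.84 did not pass (SE 0.45, edgeR adjusted p = 0.204), but it passed with the kidney covariate (1.13, edgeR adjusted p = 0.00579) and without Tg7 2w replicate 3 (0.86, edgeR adjusted p = 0.0129), on the 12w libraries alone (0.80) and with library size alone (1.31). Slc1a1 varied 6.23-fold relative to the kidney sum, and a share of its counts from kidney tubule RNA was not tested apart from that fit.

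A further group of members differed widely between libraries of one group. The carriers Slc1a4, Slc7a5, Slc7a1, Slc6a9, Slc3a2, Slc38a2 and Slc7a11 are known to be induced through the transcription factor ATF4 when amino acids run short. Slc1a4 had 63.0, 11.7 and 11.6 CPM in 2w Wt libraries and 13.5, 25.1 and 81.3 CPM in 12w Wt libraries. Slc7a5 had 272, 80.4 and 69.0 CPM and 106, 156 and 329.9 CPM in the same libraries. In both cases Wt replicate 1 of 2w and Wt replicate 4 of 12w stood out. Relative to the mean of the other 2 libraries of its group, Wt 2w replicate 1 was 5.41-fold higher in Slc1a4, 4.62-fold in the glycine carrier Slc6a9, 3.64-fold in Slc7a5, 2.78-fold in Slc7a1, 1.97-fold in Slc3a2, 1.91-fold in Slc7a11 and 1.60-fold in Slc38a2. Wt 12w replicate 4 was 20.4-fold higher in Slc7a11, 4.22-fold in Slc1a4, 3.41-fold in Slc7a1, 2.52-fold in Slc7a5, 1.99-fold in Slc38a2, 1.96-fold in Slc6a9 and 1.15-fold in Slc3a2. Slc1a5, also listed among the responsive carriers, did not share this pattern (1.04 and 0.671).

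In 2w Tg7 islets replicate 1 was below the mean of the other 2 libraries in 6 of these 7 carriers (0.287 to 0.824 times), and in Slc7a11 it was above it (1.47 times). Examples were Slc1a4 at 11.2, 40.9 and 36.8 CPM and Slc7a5 at 62.1, 144 and 122 CPM. In 12w Tg7 islets the highest library was between 1.02 and 1.29 times the lowest in 5 of the carriers, 1.57 times in Slc7a11 and 2.06 times in Slc6a9, with 18.6, 18.04 and 17.0 CPM for Slc1a4 and 120.3, 100.5 and 113 CPM for Slc7a5. Slc7a11 had 1.01, 1.19 and 22.4 CPM in 12w Wt libraries, from 8, 15 and 336 counts, and 3.04, 1.94 and 2.80 CPM in 12w Tg7 libraries. The Tg7 libraries therefore lay above Wt replicates 1 and 2 and below replicate 4, and the fitted log2 fold change of -1.71 rests on that library (SE 0.81, edgeR adjusted p = 0.147). Without it the log2 fold change was 1.22 (SE 0.44, edgeR adjusted p = 0.062). The summed level of 29 genes of the amino acid response outside the carrier families, Atf4 and the kinases Eif2ak3 and Eif2ak4 upstream of it included, was highest in the same Wt libraries, with 2847, 1226 and 1199 CPM in 2w Wt, 992, 1774 and 1779 CPM in 2w Tg7, 1463, 2049 and 3118 CPM in 12w Wt and 1384, 1249 and 1354 CPM in 12w Tg7 libraries.

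**Figure D5:**
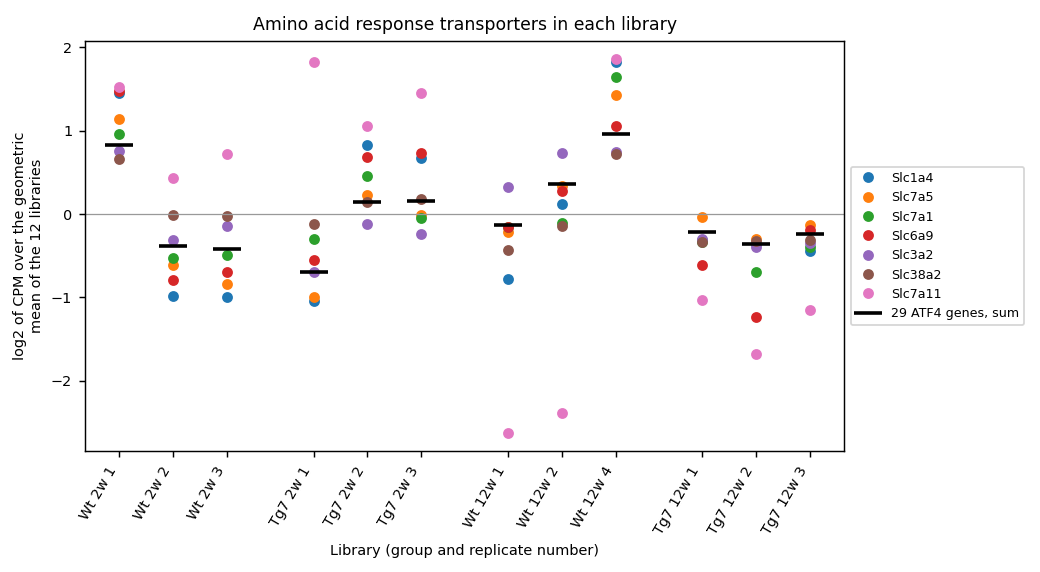
Log2 of CPM over the geometric mean of the 12 libraries for 7 carriers, coloured points, and for the sum of 29 amino acid response (ATF4) genes, black bars, in each library. Wt replicate 1 of 2w and Wt replicate 4 of 12w stand above the other libraries of their groups.

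Promoters of these carriers were searched for the C/EBP-ATF response element with the letters TGATGNAAN on both strands, in RefSeq windows of 250 bases before to 50 bases after each start site (GRCm38.p6). The letters occurred in 3.95% of 32851 promoters. Counted by gene, they occurred in 4.5% of 27025 genes and in 3 of the 31 member symbols that had a promoter in the table, which is 9.7%. The matches of Slc7a11, 66 and 48 bases before the start site, and of Slc1a4, 5 bases before it, are shown on the strand of the gene, with the motif in capitals, because these carriers had the widest spread between libraries. They come from chr3:50443661-50443689, chr3:50443643-50443671 and chr11:20332700-20332728, all on the minus strand.
Slc7a11, upstream match: ctcatgtggcTGATGCAAAcctggagaat
Slc7a11, downstream match on the opposite strand: acctggagaaTTTGCATCAtcatgcagcc
Slc1a4, match on the opposite strand: tgcctcctgcGTTGCATCAtctccagcct
The remaining carrier with the letters was Slc7a7, which followed the kidney genes. A match of letters is not a tested binding site, and no match within a window says nothing about the other carriers.

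Other genes that handle amino acids were counted from fixed lists. Of 28 tested amino acid response (ATF4) genes, 1 was called at 2w, higher, with a median log2 fold change of -0.03. That is 3.57% against 10.6 percent of all tested genes (6.07 higher). At 12w 1 was higher and 6 lower, with a median of -0.75. That is 25.0% against 23.6 percent of all tested genes (12.5 higher and 11.2 lower). The share called in either direction was thus below the background at 2w and near it at 12w, but most of the 12w calls were lower. Stc2, a secreted glycoprotein, was the higher one, with 2.87 at 2w (edgeR adjusted p = 0.00405) and 1.70 at 12w (edgeR adjusted p = 0.0377). Of 20 tested cytosolic tRNA synthetases, which charge tRNAs with amino acids, edgeR called 1 at 2w and 4 at 12w, all lower. These are 5.0% and 20.0%, against 10.6 and 23.6 percent of all tested genes in either direction and 4.55 and 11.2 percent lower. The median at 12w was -0.49, and DESeq2 called 3 and 6. Of 12 tested amino acid carriers of other families, edgeR called 0 at either age, with 3 at 2w and 2 at 12w at an unadjusted p below 0.05, and DESeq2 called 1 at each age. The amino acid response genes had their highest 12w sum in Wt replicate 4.

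Whether the effect of the transgene differed between ages was tested as the difference of both contrasts in the same model. Slc38a5 was the 1 member of 44 that passed (2.27% against 1.18 percent of all tested genes, 0.871 higher and 0.307 lower), as described above. The other members with a large difference did not pass, such as Slc7a9 with -2.69 (edgeR adjusted p = 0.126), which passed with DESeq2 (-2.72), without a filter (-2.67) and with the replicate block (-2.94).

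With age, 4 of the 44 tested members were higher and 5 lower at 12w than at 2w in Wt islets, which is 20.5% against 15.8 percent of all tested genes (7.90 higher and 7.91 lower). In Tg7 islets 4 were higher and 5 lower as well, against 13.0 percent of all tested genes (7.02 higher and 6.01 lower). The age contrasts share libraries with the Tg7 contrasts, so values are given side by side only. Cell type markers also moved with age. In Wt islets 8 of 8 endothelial and 7 of 10 stellate and fibroblast markers were lower at 12w, and 4 of 7 β-cell markers were higher. In Tg7 islets 2 of 8 endothelial markers were lower, 5 of 10 stellate and fibroblast markers were lower and 1 higher, and 3 of 7 β-cell markers were higher. Their part in the changes of the members with age was not tested. Slc6a17 had 115, 99.1 and 127 CPM in 2w Wt and 177, 256 and 173 CPM in 12w Wt libraries, which did not overlap (log2 fold change 0.83, SE 0.17, edgeR adjusted p = 0.00417). In Tg7 islets it had 93.0, 113 and 84.7 CPM at 2w and 169.7, 147 and 157 CPM at 12w, and the log2 fold change was 0.71 (SE 0.16, edgeR adjusted p = 0.0118). Slc7a8 was lower at 12w in both genotypes, by -0.44 in Wt (edgeR adjusted p = 0.0231) and -0.47 in Tg7 islets (edgeR adjusted p = 0.0184). Slc7a2 was lower as well, by -0.53 (edgeR adjusted p = 0.0433) and -0.72 (edgeR adjusted p = 0.0114).

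In Wt islets Slc36a4 (0.79, edgeR adjusted p = 0.0142), Slc7a4 (0.56, edgeR adjusted p = 0.0426) and Slc6a8 (0.53, edgeR adjusted p = 0.0217) were higher at 12w, and Slc7a6 was lower (-0.56, edgeR adjusted p = 0.0398). Slc43a1 was also called lower in Wt islets (edgeR adjusted p = 0.036), from 28 counts in the 2w libraries to 1 in the 12w libraries, a ratio of 20.2 (exact 95% counting interval 3.34 to 826). In Tg7 islets Slc43a3 (0.61, edgeR adjusted p = 0.0148), Slc38a10, a SNAT-like protein of neurons and endocrine cells (0.60, edgeR adjusted p = 0.0157), and the scarce Slc38a8 (1.88, edgeR adjusted p = 0.0359) were higher at 12w. Slc38a1, a glutamine carrier, had 10.8, 2.73 and 4.22 CPM in 2w Tg7 and 1.30, 0.719 and 1.14 CPM in 12w Tg7 libraries, without overlap, and was lower at 12w (-2.48, SE 0.56, edgeR adjusted p = 0.01). Slc7a11 was lower by -2.73 in Tg7 islets (SE 0.81, edgeR adjusted p = 0.0399), from 21.9, 12.9 and 16.9 CPM at 2w. Its change in Wt islets, with 17.7, 8.40 and 10.2 CPM at 2w, did not pass, and the 12w Wt libraries were those with 1.01, 1.19 and 22.4 CPM.

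Few of the changes with age were stable. In Wt islets Slc38a5 was lower at 12w in all 20 alternative settings, and Slc6a17 lost its call in 1 of them, with library size alone (0.43). Slc36a4 lost its Wt call without Wt 2w replicate 2 (0.70) and with library size alone (0.43), and Slc38a1 lost its Tg7 call without Tg7 2w replicate 1 (-1.73) or Tg7 12w replicate 2 (-2.27). Slc6a17 lost its Tg7 call without Tg7 2w replicate 3 (0.63) or Tg7 12w replicate 1 (0.65). Slc7a2 lost it without Tg7 2w replicate 2 (-0.59) or Tg7 12w replicate 1 (-0.70) or 3 (-0.68), and Slc7a8 without Tg7 2w replicate 2 (-0.41) or Tg7 12w replicate 2 (-0.48) or 3 (-0.41). The remaining calls with age were lost without at least 3 different single libraries each. For Slc7a11 in Wt islets the change was -3.44 without Wt 12w replicate 4 and passed.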

How the data were processed

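Islet RNA (Liberase digestion, Histopaque gradient) was turned into NEB Ultra II libraries and read on a HiSeq2500 from both ends. Reads were trimmed with Trimmomatic, aligned to mm9 (NCBIM37) with TopHat2 2.0.11 and counted with featureCounts by the authors. The submitters' processing notes name bcl2fastq 2.20.0 for base calling, and the study's methods name CASAVA. The deposited values are raw counts per Ensembl gene, not normalized, with 11610697 to 17515758 counts per library. Whether strand was used in the counting is not stated in these sources, so reads of a gene and of an overlapping or antisense gene cannot be told apart, and reads of near-identical rows may be split.

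Of 37991 genes, 15961 passed filterByExpr with a minimum count of 10 and a minimum total of 15. Counts of all 12 libraries were scaled with TMM factors (0.684 to 1.19) and fitted as group means with glmQLFit and glmQLFTest in edgeR 4.0.16 (biological coefficient of variation 0.212), adjusted by Benjamini-Hochberg over all tested genes (threshold 0.05). Standard errors (SE) are the log2 fold change over the square root of F. The study used DESeq2, which is an alternative here (DESeq2 1.42.0). Exon lengths and 3′ UTRs came from the mm9 annotation, and promoters and the microRNA from RefSeq (GRCm38.p6). Other software was R 4.3.3, limma 3.58.1 and Python 3.11.15. In a test on simulated counts of 15961 genes, 2-fold changes were recovered for 61% (2w) and 55% (12w) of the genes that carried them and 4-fold changes for 84% (2w) and 83% (12w). Of the calls in this simulation, 3.33% (2w) and 4.17% (12w) were false. It changed 100 genes by 2-fold and 100 by 4-fold, equally up and down, and held no outlying library. Far more genes were called in the data, so these rates need not hold for the calls given here.

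The members, the gene lists and the tests were chosen with earlier results of these data known. The 14 kidney tubule genes and their use as a covariate were chosen after the counts were seen. Named members were those called in a Tg7 comparison, the highest level per kb of each family, the largest called changes with age, carriers of the amino acid response and members with a miR-7 seed match. Members that follow the kidney genes, and Slc43a2, Slc38a7, Slc38a9 and Slc7a1, were named for their role or values. Alternatives were other scaling factors, library size alone, DESeq2, no filter, a stricter filter, the replicate number as a block, each age alone, the kidney covariate and each library left out. No sample was dropped.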

Additional observations from a re-analysis of the deposited data

Results flagged for a closer look

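The effect of the transgene on Slc38a5 differed between the ages. The log2 ratio of Tg7 to Wt islets was 0.52 at 2w and 2.70 at 12w, and the difference of 2.19 (SE 0.27) passed edgeR's test of the interaction (adjusted p = 0.00127). It ranged from 1.99 to 2.48 over the alternative settings and passed in all of them. All 3 Tg7 libraries lay above all 3 Wt libraries at each age. Most of the difference came from the 12w Wt libraries, with 11.1 to 17.8 CPM against 79.7 to 119 CPM at 2w. No group had 4 or more libraries, so no library was tested as an outlier of its group.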

How the results depend on the processing

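Counts of called members depended on the settings, and so did those of all tested genes. Against 6 at 2w, there were 10 with library size alone, 13 with DESeq2, 15 without an expression filter, 10 with the replicate number as a block and 1 with the kidney covariate. Leaving out each library gave 2 to 13. Of the 2w libraries, omitting Wt 1 gave 3, Wt 2 gave 3, Wt 3 gave 2, Tg7 1 gave 13 and Tg7 3 gave 3. Of the 12w libraries, omitting Wt 1 gave 10 and Wt 4 gave 13. Over all tested genes the 2w calls were 1695 in the main fit. They were 1987 with library size alone, 2474 with DESeq2, 2054 without a filter, 2630 with the block and 736 with the kidney covariate. DESeq2 and the fit without a filter tested 24010 genes. With a library left out they were 754 (Wt 3 of 2w) to 3071 (Wt 4 of 12w). Against 12 at 12w, leaving out each library gave 9 to 15, and the block gave 15. Over all tested genes the 12w calls were 3772 in the main fit, 2417 to 4036 with a library left out and 3572 with the block. Against 1 for the difference between ages, there were 2 with library size alone, 3 with DESeq2, 2 without a filter, 2 with the block and 1 to 2 with single libraries omitted (2 for Wt 2 of 12w). For all tested genes these were 188 in the main fit and 347, 563, 420 and 502 in those settings. With single libraries omitted they were 82 to 579. Against 9 for age in Wt islets, there were 14 with the block, 4 with the kidney covariate and 3 to 11 with single libraries omitted (3 for Wt 2 and for Wt 3 of 2w, 4 for Wt 2 of 12w). For all tested genes these were 2524 in the main fit, 3817 with the block and 1985 with the kidney covariate. With single libraries omitted they were 1336 (Wt 2 of 2w) to 4020 (Wt 4 of 12w). Against 9 for age in Tg7 islets there were 2 to 11 with single libraries omitted. Of the Tg7 libraries, omitting 1 or 2 of 2w gave 4, 3 of 2w gave 5, 1 or 3 of 12w gave 3, and 2 of 12w gave 2. For all tested genes there were 2079 in the main fit and 1115 (Tg7 1 of 12w) to 3329 (Wt 4 of 12w) with single libraries omitted. Scaling by library size alone called 10 members with age in Wt islets, all lower, and 1 higher and 6 lower in Tg7 islets, with the median of all genes moved by -0.39 and -0.12. Of all tested genes it called 325 higher and 3795 lower in Wt islets and 645 higher and 1061 lower in Tg7 islets. The cause of these shifts was not tested. Same-number libraries did not deviate together (residual correlations -0.0214, -0.167 and -0.0343 at 2w, -0.0894 and -0.0112 at 12w), so the block is no pairing of samples. With it, Slc7a11 reversed at 12w to 1.15 (edgeR adjusted p = 0.0286). Of the values of named members under alternatives, 2822 kept their side of the threshold, 139 lost and 77 gained a call. Calls between genotypes kept in all settings were Slc1a5 at both ages and, at 12w, Slc36a4, Slc38a4, Slc38a5, Slc38a11 and Slc43a3, and Slc38a5 also kept those for the difference between ages and for age in Wt islets. Where a library was left out, the remaining pair was taken to vary as the other groups do. Depth limits Slc38a11, Slc43a1, Slc6a15 and Slc7a9, with few counts per library.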

Other observations

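Genes that act beside the carriers were counted from fixed lists. Of 21 tested genes of amino acid sensing at the lysosome, edgeR called 2 in Tg7 islets at 2w, both lower. That is 9.52% against 10.6 percent of all tested genes (4.55 lower). At 12w it called 1 higher and 7 lower (38.1% against 23.6 percent, 12.5 higher and 11.2 lower). DESeq2 called 5 and 8, and the median log2 fold change at 12w was -0.32. The members lower at both ages were Fnip2, a partner of folliculin, with -0.65 at 2w (edgeR adjusted p = 0.00475) and -1.30 at 12w (edgeR adjusted p = 1.01e-05), and Rragd, a GTPase that recruits mTORC1 to lysosomes, with -0.83 (edgeR adjusted p = 0.00937) and -1.22 (edgeR adjusted p = 0.000265). A further list held enzymes of glutamate and GABA, and also of arginine and branched-chain amino acids. Of its 18 tested genes, edgeR called 4 higher and 2 lower at 2w (33.3% against 10.6 percent, 6.07 higher and 4.55 lower). At 12w it called 2 higher and 4 lower (33.3% against 23.6 percent, 12.5 higher and 11.2 lower), and DESeq2 called 5 and 6. Gad1, which makes GABA from glutamate, had -2.66 at 2w (edgeR adjusted p = 1.24e-05) and -4.05 at 12w (edgeR adjusted p = 1.62e-07). Bcat1, which transfers the amino group of branched-chain amino acids, had 2.16 (edgeR adjusted p = 0.00264) and 2.82 (edgeR adjusted p = 0.000137). The genes named here were chosen after their values were seen.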
